A study of Mus musculus with 2 samples.

Results

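The genes described here are 32 genes of glycolysis and of the response to low oxygen, taken as a list of names with earlier results of these data known. No measured value enters the rule that picks them. All 32 were among the 31053 genes of the count matrices. They fall into 2 glucose transporters, 12 glycolytic enzymes, 2 enzymes that set the level of a phosphofructokinase activator, 3 genes of lactate and pyruvate handling, 3 genes of the hypoxia-inducible factor (HIF) and its oxygen sensors, 2 genes of mitochondrial clearance and 8 further genes known as part of the hypoxia response.

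The genes were measured by single-cell RNA sequencing in ear epidermis of wild-type female FVB/NJ mice, 8 weeks old, 7 days after an injection into the skin of either an isotype control antibody or an antibody against Skint1. Skint1 is an epithelial protein on which dendritic epidermal T cells (DETCs), the resident γδ T cells of mouse epidermis, depend for their development. The libraries were made to ask whether blocking Skint1 in adult skin acts on the DETCs themselves. Live CD45+ EpCAM- MHC-II- cells had been sorted after trypsin digestion of the epidermis, and 1 library was made per treatment. The labels do not say how many mice each library holds.

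Unique molecular identifiers (UMIs, each marking 1 mRNA molecule) were summed over all cells of a class in a library and scaled to 1000000 UMIs of the class (counts per that number, CPM). Cells were barcodes in which 500 to 2500 genes were detected and mitochondrial UMIs made up no more than 12%. There were 4242 of them under isotype and 5961 under Skint1 antibody, with 5 barcodes in common. DETCs (at least 3 Trdc and 3 Cd3 UMIs and no Trac, Cd4, Cd8a or Cd8b1 UMI) numbered 3544 and 4945, with 14659876 and 18706191 UMIs. αβ T cells (a Trac UMI and no Trdv4 UMI) numbered 188 and 199, and cells of the innate lymphoid cell (ILC) class (at least 3 UMIs of Il7r, Rora and Gata3, at most 2 Cd3 UMIs, no Trdv4 UMI) numbered 73 and 125. Another 9 and 14 cells met both of the last rules and were left out. Because the kit tags the 3' end of each molecule once, CPM was not divided by gene length. Levels of different genes are set side by side on this scale, with no correction for differences in capture or read assignment between genes.

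Glycolysis splits glucose into pyruvate in the cytosol and yields ATP without oxygen. Transporters bring glucose in, hexokinases trap it by phosphorylation, and lactate dehydrogenase recycles NADH by turning pyruvate into lactate. When oxygen is scarce, prolyl hydroxylases stop marking HIF-1α for destruction, and HIF binds promoters that carry the core letters ACGTG and raises transcription of transporters, glycolytic enzymes and mitophagy receptors. T cells also raise many of the same genes after stimulation through their antigen receptor.

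The class labels were checked against marker genes. In DETCs, Trdc stood at 4673 and 3846 CPM in the isotype and Skint1 antibody library, and markers of keratinocytes and of Langerhans or myeloid cells summed to under 30 CPM each. The αβ T class still held 314 and 589 CPM of Trdc, and 19.7% and 15.6% of its cells had a UMI of the cycling genes Mki67 or Top2a, against 7.62% and 7.36% of DETCs. The 9 DETC markers summed to 5901 and 6991 CPM in the αβ T class, against 26105 and 25701 CPM in DETCs. The 8 αβ T markers separated the classes less, at 3387 and 2950 CPM in the αβ T class, 2588 and 2229 CPM in DETCs and 1827 and 1720 CPM in the ILC class. The ILC class went against its label in part. The 5 keratinocyte markers together reached 540 and 4242 CPM there, the 6 Langerhans or myeloid markers 1468 and 2325 CPM, and the ILC markers Il1rl1 and Arg1 were at 0 apart from 1 Il1rl1 UMI. Icos, the other ILC marker that the rule does not use, stood at 172 and 164 CPM in the ILC class against 12.1 and 7.59 CPM in DETCs, and Il7r, which the rule uses, at 747 and 719 CPM. All 6 ILC markers together set the ILC class (1652 and 1655 CPM) apart from DETCs (97.3 and 93.4 CPM), but much less from αβ T cells (1224 and 1102 CPM). Leaving out ILC-class cells with 3 or more keratin UMIs or with no Il7r UMI left 67 and 108 cells and brought keratins to 18.6 and 26.3 CPM, while the Langerhans or myeloid sum stayed at 1545 and 2766 CPM. Values for the ILC class are therefore given for cells chosen by that rule. The narrower set is given only for Hk2, Hilpda, Ldha and Pfkp and for the ILC-class treatment ratios past the fold.

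In DETCs, the highest member by level was Hk2, the inducible hexokinase, together with Gapdh, the glyceraldehyde phosphate dehydrogenase. Hk2 stood at 527 CPM under isotype (95% Poisson interval 516 to 539) and 556 CPM under Skint1 antibody (546 to 567). Gapdh stood at 528 CPM (516 to 540) and 511 CPM (501 to 521). The intervals of these 2 genes overlapped under isotype and were apart under Skint1 antibody, so no single order holds for both. All intervals here cover counting error only.

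Aldoa, the muscle-type aldolase, followed at 305 and 324 CPM in the isotype and Skint1 antibody library, and Hilpda, a lipid droplet protein that inhibits triglyceride breakdown, at 304 and 298 CPM. A further 5 members stood above 160 CPM in both libraries. They were the isomerase Gpi1 (227 and 217 CPM), the triose phosphate isomerase Tpi1 (213 and 201 CPM), the pyruvate kinase Pkm (188 and 187 CPM), the mitophagy receptor Bnip3l (179 and 175 CPM) and the lactate dehydrogenase subunit Ldha (177 and 167 CPM). At the low end stood the lactate exporter Slc16a3 (1.64 and 2.03 CPM), the Myc antagonist Mxi1 (3.96 and 3.85 CPM) and the glucose transporter Slc2a3 (3.62 and 4.17 CPM). Hk2 thus stood far above the other hexokinase on the list, Hk1, which reached 32.7 and 32.9 CPM. Eno1 has a near-identical copy, Eno1b, and a second gene model also carries the symbol Aldoa, so the levels of both are uncertain where reads are shared.

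**Figure D1:**
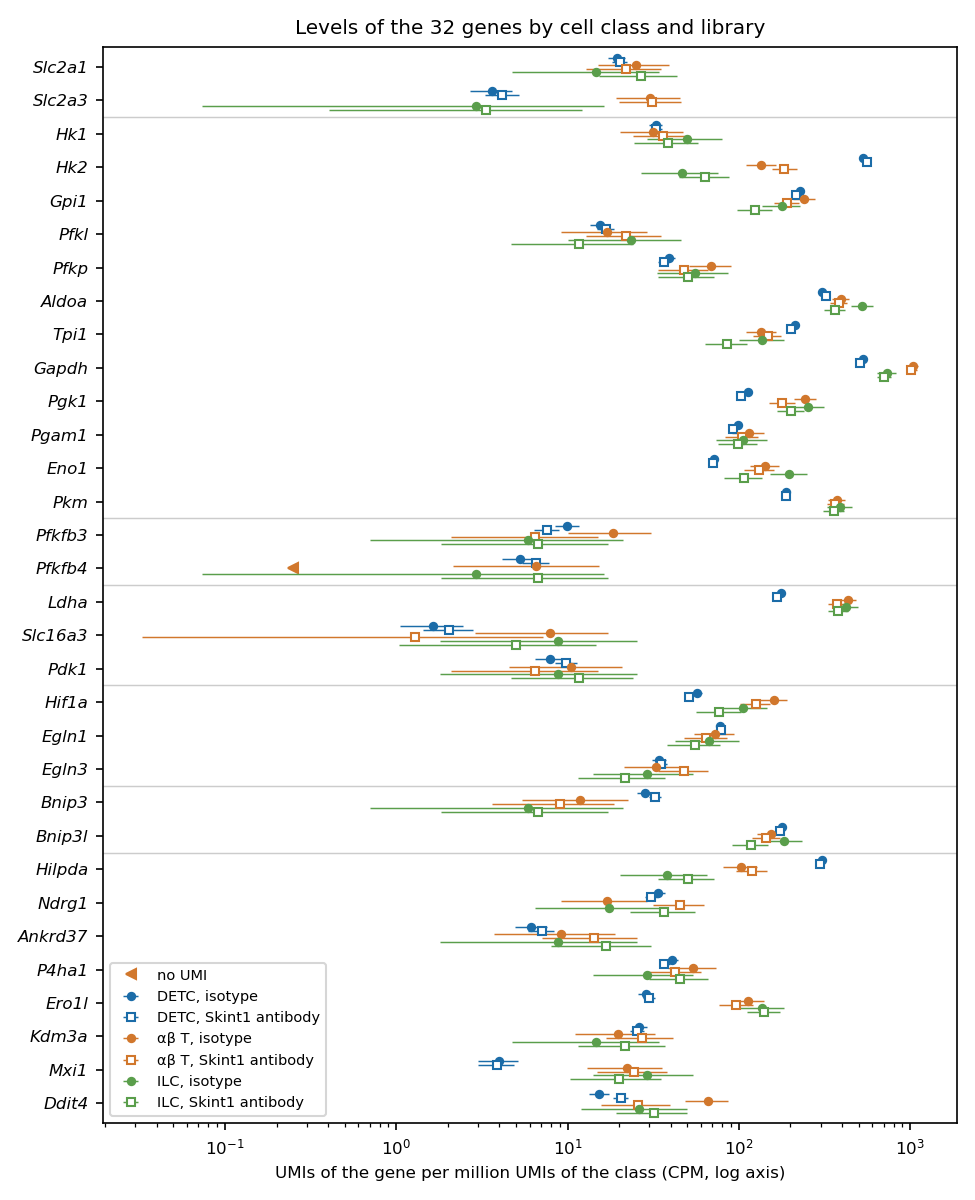
Level of each of the 32 genes (CPM, log axis) in DETCs, αβ T cells and the ILC class, with filled circles for the isotype and open squares for the Skint1 antibody library and bars for 95% Poisson intervals (an arrow marks no UMI). Hk2 and Hilpda stood higher in DETCs than in the other classes, whereas Gapdh, Pkm and Ldha stood higher in αβ T cells and the ILC class than in DETCs.

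Promoters are shown for 5 members that differed by Fos in DETCs (given further on) and had the core letters of the HIF site. RefSeq windows (GRCm38.p6) were found for 28 of the 32 genes, and Bnip3l, Slc2a3, Ndrg1 and Ero1l had no entry. Capitals mark ACGTG on either strand (ACGTG or CACGT, so that CACGTG counts on both strands). The windows of Hk2 (chr6:82774455-82774704, minus strand) and P4ha1 (chr10:59323046-59323295, plus strand) are the 250 bases before the start and overlap no exon of the GENCODE annotation. For Slc2a1 (chr4:119108699-119108723, plus strand), Hilpda (chr6:29272573-29272597, plus strand, before the second start) and Ddit4 (chr10:59951943-59951967, minus strand) only the bases around the match are shown.
Hk2: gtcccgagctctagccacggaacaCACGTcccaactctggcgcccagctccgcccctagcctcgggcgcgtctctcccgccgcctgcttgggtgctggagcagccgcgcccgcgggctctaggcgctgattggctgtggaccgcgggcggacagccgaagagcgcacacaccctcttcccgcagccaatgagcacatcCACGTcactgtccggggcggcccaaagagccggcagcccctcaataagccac
P4ha1: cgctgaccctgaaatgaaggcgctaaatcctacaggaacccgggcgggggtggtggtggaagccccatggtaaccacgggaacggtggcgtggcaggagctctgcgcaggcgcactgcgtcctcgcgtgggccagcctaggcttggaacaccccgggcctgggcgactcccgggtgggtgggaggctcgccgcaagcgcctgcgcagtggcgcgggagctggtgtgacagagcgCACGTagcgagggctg
Slc2a1: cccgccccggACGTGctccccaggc
Hilpda: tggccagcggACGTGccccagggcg
Ddit4: aacgttgcgaACGTGcgcccggtgc

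The Hk2 window held the letters 226 and 52 bases before the start, and the P4ha1 window held them 16 bases before it. The match lay 36 bases before the start in Slc2a1, 43 bases in Hilpda and 187 bases in Ddit4. Over all RefSeq windows of this length, 16.6% of 32851 held ACGTG, and 18.5% of 27025 genes had at least 1 such window. Among the members 18 of 28 genes had one. Many members are known HIF targets, so this count describes the list. Split by the Fos comparison, the letters were found in 8 of 10 members called higher, in the 1 called lower and in 9 of 17 not called. Gapdh and Pfkp were called higher and had no match. The letters TGANTCA, to which Fos and Jun dimers are known to bind, were found in windows of 3 of the 28 members (Aldoa, Hilpda and Kdm3a) and in 7.82% of all genes.

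Ldha, which passed no test by Fos, is shown for contrast. Its first window (chr7:46845554-46845803, plus strand) held more matches than that of Hk2.
Ldha: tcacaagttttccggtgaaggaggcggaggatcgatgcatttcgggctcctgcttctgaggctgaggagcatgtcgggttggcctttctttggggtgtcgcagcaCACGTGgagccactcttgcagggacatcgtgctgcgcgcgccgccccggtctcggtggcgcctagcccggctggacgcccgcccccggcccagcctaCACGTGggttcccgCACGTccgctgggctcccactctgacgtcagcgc

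The first question was whether DETCs differ from the other lymphocytes of the same preparations. UMI sums per class and library were compared with the quasi-likelihood test of edgeR, with Benjamini-Hochberg adjustment over 7561 genes. The 2 libraries were the only samples and carried different treatments, so a p-value measures whether a class difference was alike in both. Of the 32 members, 28 passed the filter on low counts, and Pfkfb3, Pfkfb4, Slc16a3 and Pdk1 did not.

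Against αβ T cells, 4 members were higher in DETCs and 12 were lower, where 17.4% of all genes tested were called higher and 15.1% lower (32.5% in either direction). The median log2 fold change over the 28 members was -0.39, against 0.05 over all genes tested. Hk2, Hilpda, Bnip3 and Tpi1 were higher, and the enzymes from Gapdh to Ldha were lower except Pgam1, which passed no test.

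Hk2 had 527 and 556 CPM in DETCs and 135 and 184 CPM in αβ T cells of the isotype and Skint1 antibody library, so that the groups did not overlap. The difference was 3.17-fold (log2 1.67 ± 0.13 SE, edgeR adjusted p = 1.82e-10). Hilpda stood at 304 and 298 CPM against 103 and 119 CPM, a log2 fold change of 1.34 ± 0.14 (edgeR adjusted p = 3.53e-08). When αβ T cells with any Trdc UMI were left out, the differences were larger, with log2 fold changes of 2.39 for Hk2 and 2.03 for Hilpda. Both genes were also present at 79.1 and 98.9 CPM (Hk2) and 259 and 256 CPM (Hilpda) in barcodes of 1 to 100 UMIs, taken here as free RNA, and the part of free RNA in the levels of the smaller classes was not tested.

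Bnip3, a mitophagy receptor, rested on few molecules outside DETCs. It had 28.2 and 32.4 CPM in DETCs against 11.8 and 9.03 CPM in αβ T cells (9 and 7 UMIs), and the log2 fold change was 1.44 ± 0.33 (edgeR adjusted p = 0.00118, and 0.0688 at most under the alternatives). Tpi1 stood at 213 and 201 CPM against 135 and 147 CPM (log2 fold change 0.45 ± 0.14, edgeR adjusted p = 0.0178), a call that was lost in 4 of 12 alternatives, of which 2 leave out a library and carry no test. Its partner in mitochondrial clearance, Bnip3l, was at 179 and 175 CPM against 154 and 144 CPM and passed no test (edgeR adjusted p = 0.468).

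Among members lower in DETCs, Slc2a3, a glucose transporter with high affinity, had the widest gap. It stood at 3.62 and 4.17 CPM in DETCs and at 30.2 and 31.0 CPM in αβ T cells, 8.40-fold lower in DETCs (log2 -3.07 ± 0.36 SE, edgeR adjusted p = 2.52e-07). The other transporter, Slc2a1, did not pass the test, at 19.4 and 20.2 CPM in DETCs and with 19 and 17 UMIs in αβ T cells (log2 fold change -0.35 ± 0.29, edgeR adjusted p = 0.405).

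Of the enzymes of the later steps, 5 were lower in DETCs and the mutase Pgam1 passed no test (log2 fold change -0.30 ± 0.15, edgeR adjusted p = 0.132, though lower with a call in 2 of 12 alternatives). Gapdh had 528 and 511 CPM in DETCs against 1039 and 1016 CPM in αβ T cells (log2 fold change -1.08 ± 0.09, edgeR adjusted p = 3.82e-10). Ldha had 177 and 167 CPM against 431 and 373 CPM (log2 fold change -1.32 ± 0.11, edgeR adjusted p = 6.22e-10). The phosphoglycerate kinase Pgk1 (-1.06), the enolase Eno1 (-1.04) and Pkm (-1.08) were lower by similar log2 fold changes, with a call in every alternative that had a test. Aldoa (-0.40) and the platelet-type phosphofructokinase Pfkp (-0.72) were lower by less, and Aldoa lost its call in 3 of 12 alternatives and Pfkp with DESeq2. Of the other early enzymes, Gpi1 and Hk1 passed no test, with log2 fold changes of -0.05 and -0.15, and neither did the liver-type phosphofructokinase Pfkl at -0.38.

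Of the HIF genes, Hif1a, the oxygen-regulated subunit, was lower in DETCs at 56.7 and 50.9 CPM against 160 and 125 CPM in αβ T cells (log2 fold change -1.50 ± 0.15, edgeR adjusted p = 1.57e-08). The prolyl hydroxylases Egln1 and Egln3 passed no test, with log2 fold changes of 0.09 and -0.32. Ero1l, an oxidase that forms disulfide bonds in the endoplasmic reticulum, was lower at 28.6 and 30.0 CPM against 113 and 96.7 CPM (log2 fold change -1.94 ± 0.17, edgeR adjusted p = 1.50e-09). Mxi1 was lower too, at 3.96 and 3.85 CPM against 22.4 and 24.5 CPM, a log2 fold change of -2.68 ± 0.39 (edgeR adjusted p = 5.27e-06).

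Ddit4, an inhibitor of the growth kinase complex mTORC1, was lower in DETCs with a log2 fold change of -1.45 ± 0.30 (edgeR adjusted p = 0.000436). Its levels were 15.3 and 20.5 CPM in DETCs and 65.7 and 25.8 CPM in αβ T cells. The value rested on the isotype library: without it the log2 fold change was -0.43, and without the Skint1 antibody library it was -2.12. The remaining hypoxia response genes Ndrg1, Ankrd37, P4ha1 and Kdm3a passed no test, with log2 fold changes between -0.92 and 0.04.

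Against the ILC class, 5 members were higher in DETCs and 10 were lower, where 18.3% of all genes tested were called higher and 16.1% lower (34.4% in either direction). The median over the 28 members was -0.24 on the log2 scale, against 0.02 over all genes tested. These differences share the DETC samples with those against αβ T cells. Hk2, Hilpda, Bnip3, Tpi1 and Gpi1 were higher, and Ero1l, Mxi1, Hif1a and 7 enzymes from Pfkp to Ldha were lower.

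Hk2 stood at 46.7 and 63.5 CPM in the ILC class (16 and 38 UMIs), and the difference from DETCs was 8.93-fold (log2 3.16 ± 0.17 SE, edgeR adjusted p = 2.62e-13). Hilpda stood at 37.9 and 50.1 CPM there, and its log2 fold change was 2.62 ± 0.19 (edgeR adjusted p = 5.74e-11). In the narrower set of ILC-class cells the log2 fold changes were 3.04 for Hk2 and 2.60 for Hilpda, so both were nearly as large in that set, in which Langerhans or myeloid markers remained. For Bnip3, with 2 and 4 UMIs in the ILC class, the ratio of DETCs to the ILC class in the isotype library was 2.27 on the log2 scale with a counting interval of 0.41 to 5.32.

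Among the lower members, Ldha stood at 420 and 379 CPM in the ILC class (log2 fold change -1.33 ± 0.11, edgeR adjusted p = 1.48e-09), and the narrower set gave -1.35. Pkm had 388 and 358 CPM there (log2 fold change -1.10 ± 0.12, edgeR adjusted p = 3.86e-08), and Pgk1 254 and 201 CPM (-1.17 ± 0.14, edgeR adjusted p = 3.46e-07). Ero1l reached 137 and 140 CPM in the ILC class, a log2 fold change of -2.36 ± 0.18 (edgeR adjusted p = 1.56e-10) that shrank to -0.99, still called, without the upper limit on genes per cell. Gapdh, at 730 and 705 CPM, differed by less than in the comparison with αβ T cells (-0.58 ± 0.09, edgeR adjusted p = 1.50e-05), although the difference between both comparisons was not tested.

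The smaller calls were less firm. Gpi1, at 227 and 217 CPM in DETCs and 178 and 124 CPM in the ILC class, had a log2 fold change of 0.48 ± 0.15 (edgeR adjusted p = 0.0128) and lost its call in 3 of 12 alternatives, with adjusted p up to 0.434. With a mitochondrial limit of 5%, Aldoa, Bnip3, Eno1, Gapdh, Hif1a, Mxi1 and Tpi1 lost theirs too, with Tpi1 at 0.20. Without the isotype library, the log2 fold change of Eno1 went from -1.13 to -0.70 and that of Aldoa from -0.57 to -0.27. Pfkp passed narrowly (-0.60 ± 0.23, edgeR adjusted p = 0.0497) and lost its call in 7 of 12 alternatives, the narrower set among them (adjusted p = 0.122). Slc2a3, which set αβ T cells apart, had 1 and 2 UMIs in the ILC class, and a difference from DETCs was not detectable at this depth. Slc2a1, Hk1, Pfkl, Pgam1, Egln1, Egln3, Bnip3l, Ndrg1, Ankrd37, P4ha1, Kdm3a and Ddit4 passed no test either, with log2 fold changes from -1.13 (Ankrd37) to 0.39 (Egln3). Some were called under an alternative. Without the upper gene limit, where 6 members were higher and 14 lower of 31 tested, beside 2655 and 3607 of all 10619 genes tested, Pgam1 (-1.07), Ndrg1 (-1.06) and Slc2a1 (-0.64) were called lower and P4ha1 (0.44) higher, and the log2 fold changes of Hilpda, Bnip3 and Mxi1 became 3.47, 0.87 and -3.62. Ddit4 was called lower (-1.16) with cells of both classes kept.

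**Figure D2:**
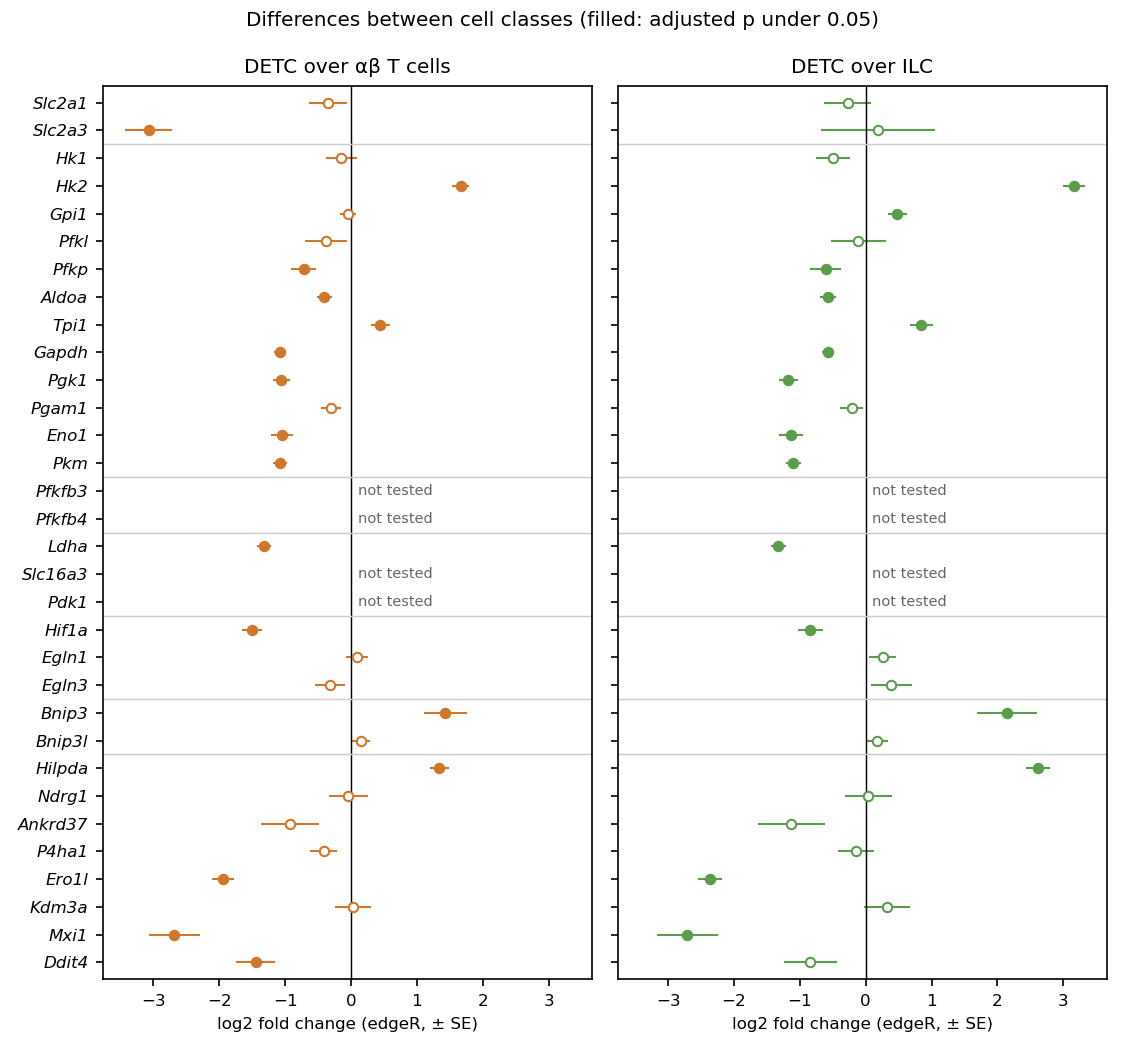
Log2 fold change of DETCs over αβ T cells (left) and over the ILC class (right) for each gene, from edgeR with SE bars, filled where the adjusted p was under 0.05. Hk2, Hilpda, Bnip3 and Tpi1 lie right of 0 in both panels, while Gapdh, Pgk1, Eno1, Pkm, Ldha, Hif1a, Ero1l and Mxi1 lie left of 0 in both.

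DETCs were next split by their UMIs of Fos, an immediate early transcription factor of the AP-1 family that T cells make within minutes of stimulation. The cells had been through trypsin digestion, and whether Fos was made in the skin or during digestion was not tested. There were 555 and 745 DETCs with no Fos UMI in the isotype and Skint1 antibody library, and 1825 and 2333 with 10 or more. The median depth was 3726 and 3421 UMIs without Fos, and 4194 and 3676 UMIs with 10 or more. All 32 members passed the low-count filter here, and 10980 genes were tested in the same way.

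With 10 or more Fos UMIs, 12 members were higher and 1 was lower, where 16.1% of all genes tested were called higher and 11.4% lower (27.5% in either direction). The median over the members was 0.23 on the log2 scale, against -0.03 over all genes tested. Of the 8 other hypoxia response genes 5 were higher, as were 4 of 12 glycolytic enzymes, 1 of 2 glucose transporters and none of the 3 lactate and pyruvate genes. The changes were of very unequal size, from 14.8-fold for Hilpda to 1.13-fold for Aldoa.

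Hilpda rose from 36.2 to 454 CPM under isotype and from 36.5 to 474 CPM under Skint1 antibody. The log2 fold change was 3.88 ± 0.08 (edgeR adjusted p = 2.87e-26), and the classes were far apart in both libraries. Ndrg1, a stress-induced gene with a role in growth arrest, rose from 5.64 to 49.7 CPM and from 6.34 to 49.5 CPM, 9.47-fold (log2 3.24 ± 0.19 SE, edgeR adjusted p = 4.21e-15). Hk2 rose from 140 to 715 CPM and from 193 to 772 CPM (log2 fold change 2.36 ± 0.07, edgeR adjusted p = 6.44e-23).

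Slc2a1, the main glucose transporter of many cells, rose from 9.41 to 23.1 CPM and from 8.20 to 26.1 CPM (log2 fold change 1.71 ± 0.20, edgeR adjusted p = 3.32e-08). P4ha1, a prolyl hydroxylase for collagen, rose from 15.5 to 50.1 CPM and from 24.2 to 45.4 CPM (log2 fold change 1.43 ± 0.15, edgeR adjusted p = 6.98e-09). Ddit4 rose from 9.88 to 17.2 CPM and from 11.6 to 23.7 CPM (log2 fold change 1.15 ± 0.19, edgeR adjusted p = 2.11e-05). These 6 genes kept their call under each alternative that had a test, and their direction under all 14. With a mitochondrial limit of 5% the log2 fold changes were larger for Ndrg1 (3.87) and P4ha1 (2.07). Their values were close in DETCs of 3000 to 6000 UMIs, where Hilpda gave 3.83, Ndrg1 3.33 and Hk2 2.41 on the log2 scale, and in DETCs without UMIs of Mki67 or Top2a, where they gave 3.93, 3.18 and 2.35.

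Another 6 members passed as higher by smaller margins. Pfkfb3, which makes the activator of phosphofructokinase, had a log2 fold change of 1.13 ± 0.30 (edgeR adjusted p = 0.00502). Its level rose from 3.76 to 12.1 CPM in the isotype library and was 6.34 and 7.98 CPM in the Skint1 antibody library, and the log2 fold change was 0.54 without the isotype and 1.92 without the Skint1 antibody library. Pfkp (0.41), Ero1l (0.40), Hif1a (0.32), Gapdh (0.29) and Aldoa (0.18) were called with log2 fold changes under 0.5. These fold changes use trimmed-mean scaling, and in CPM the levels moved less, with Gapdh at 496 and 533 CPM under isotype and Aldoa at 339 and 317 CPM under Skint1 antibody. With library totals alone the median of all genes shifted to -0.24, 7 members were higher and 5 lower (of all 10980 genes tested, 1139 and 3397), Pfkp, Ero1l, Hif1a and Gapdh lost their call, and Aldoa turned to -0.03. Over the 14 alternatives, of which those that leave out a library carry no test, Hif1a lost its call in 8, Ero1l in 7 and Pfkp in 5. All of these 3 lost it in DETCs of 3000 to 6000 UMIs (log2 fold changes 0.28, 0.28 and 0.25) and after thinning to 2000 UMIs. Pfkfb3 and Aldoa lost theirs with DESeq2 and with a mitochondrial limit of 5%. Hif1a also differed between libraries, at 0.57 without the isotype and 0.10 without the Skint1 antibody library.

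The one member called lower was Egln1, the main oxygen sensor of HIF, at 93.1 and 98.0 CPM without Fos UMIs and 67.2 and 69.4 CPM with 10 or more (log2 fold change -0.28 ± 0.09, edgeR adjusted p = 0.0163, lost in 3 of 14 alternatives). Of the later enzymes of glycolysis, Gapdh had the small call given above, and Pgk1, Pgam1, Eno1, Pkm and Ldha passed no test. This depended on the scaling and on the limits set. With library totals Pgk1 (-0.26), Eno1 (-0.35) and Pkm (-0.34) were called lower, as were Egln1 (-0.49) and Pdk1 (-0.81). Eno1 was also called lower after thinning (-0.31), and Pgam1 was called higher in 2 of 14 alternatives (0.25 and 0.23). Pkm stood at 211 and 219 CPM without Fos and 172 and 168 CPM with 10 or more, and Ldha at 190 and 172 CPM against 169 and 164 CPM. The mitophagy receptors Bnip3 and Bnip3l, with log2 fold changes of 0.01 and 0.12, and the transporter Slc2a3 at -0.08 passed no test either. Bnip3 had been called higher in DETCs than in both other classes. The other members without a call by Fos were Hk1, Gpi1, Pfkl, Tpi1, Pgk1, Pgam1, Eno1, Pfkfb4, Slc16a3, Pdk1, Egln3, Ankrd37, Kdm3a and Mxi1, with log2 fold changes from -0.60 (Pdk1) to 0.77 (Pfkfb4). Under 1 to 5 of the alternatives Gpi1, Pfkfb4, Egln3 and Pfkl were called higher.

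**Figure D3:**
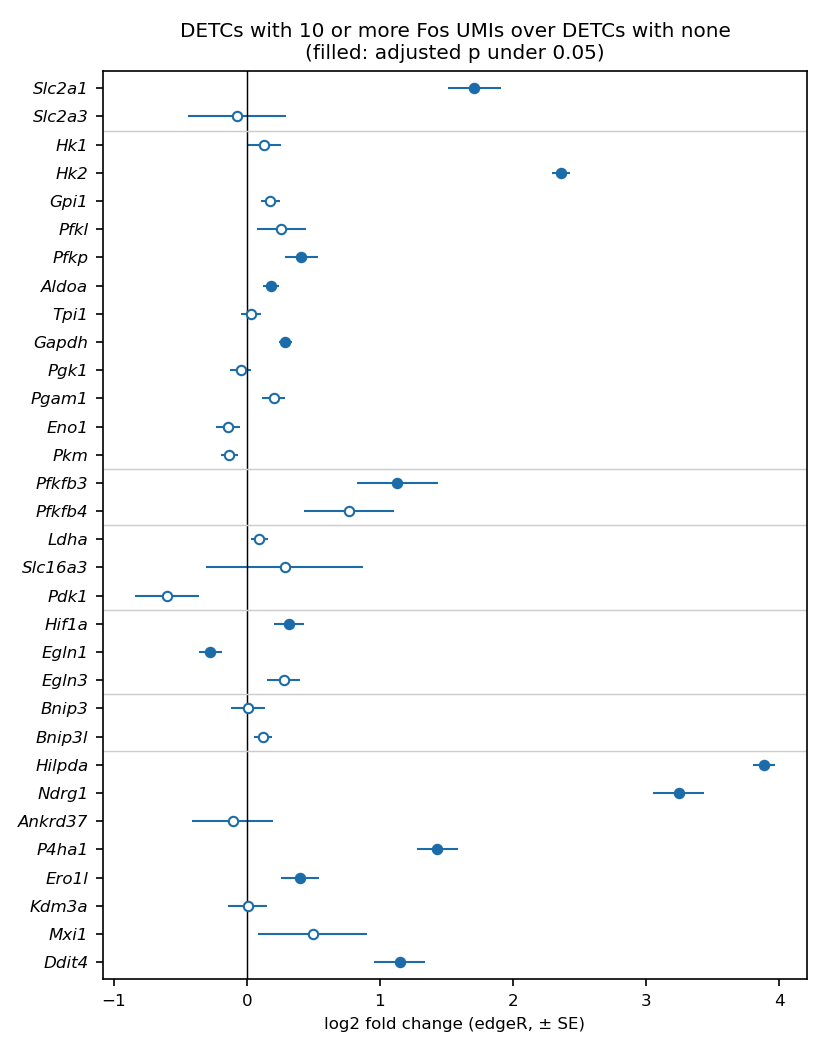
Log2 fold change of DETCs with 10 or more Fos UMIs over DETCs with none for each gene, from edgeR with SE bars, filled where the adjusted p was under 0.05. Hilpda, Ndrg1 and Hk2 lie above 2, Slc2a1, P4ha1, Ddit4 and Pfkfb3 between 1 and 2, and most glycolytic enzymes near 0.

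Over 6 bins of Fos UMIs, the leading genes climbed in steps. In the isotype library Hilpda stood at 36.2 CPM with no Fos UMI, 114 CPM with 1 to 4, 250 CPM with 5 to 9, 396 CPM with 10 to 19, 469 CPM with 20 to 39 and 524 CPM with 40 or more. In the Skint1 antibody library the same bins gave 36.5, 108, 253, 358, 490 and 669 CPM. Hk2 climbed from 140 to 764 CPM at 20 to 39 Fos UMIs in the isotype library and then stood at 731 CPM, whereas in the Skint1 antibody library it rose over all bins from 193 to 886 CPM. Ndrg1 climbed from 5.64 to 59.8 CPM and from 6.34 to 52.7 CPM. Pkm went the other way, from 211 to 168 CPM and from 219 to 159 CPM. The depth of the cells rose along the same bins, from a median of 3726 to 4648 UMIs under isotype and from 3421 to 4072 UMIs under Skint1 antibody.

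**Figure D4:**
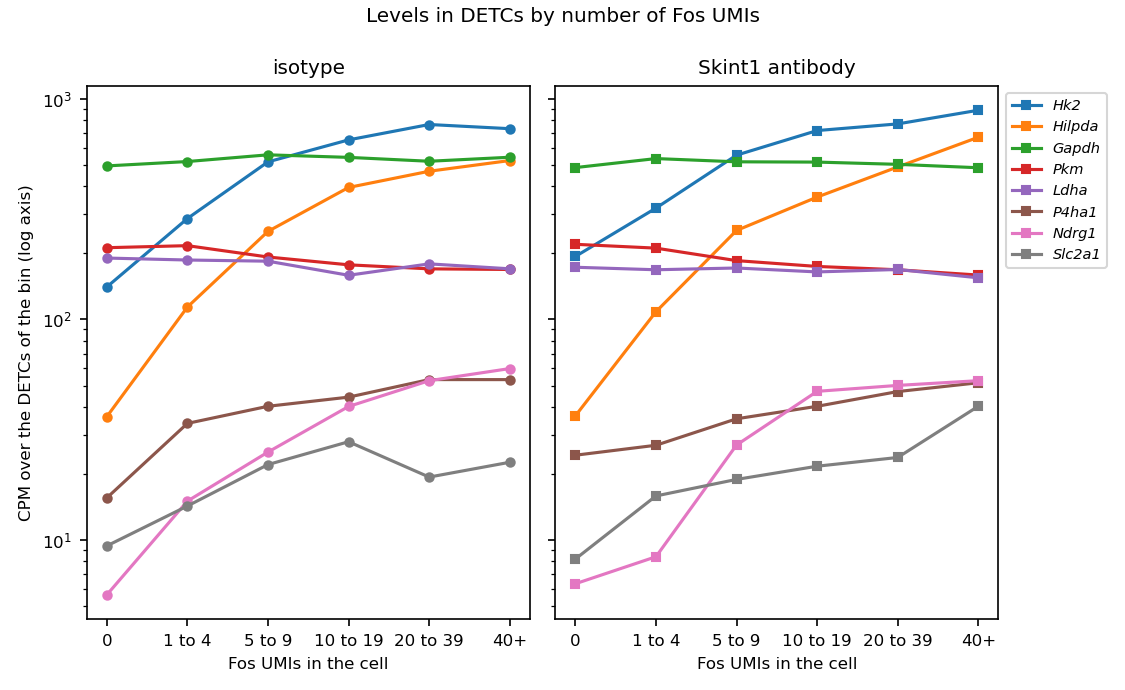
Level of 8 genes (CPM, log axis) in DETCs by the number of Fos UMIs in the cell, for the isotype (left) and the Skint1 antibody library (right). Hilpda, Hk2 and Ndrg1 climb steeply, P4ha1 and Slc2a1 less so, and Gapdh, Pkm and Ldha stay within a narrow range.

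Fos was lower outside DETCs. It stood at 3766 and 3699 CPM in DETCs, 1333 and 2149 CPM in αβ T cells and 668 and 1135 CPM in the ILC class, and 51.5% and 47.2% of DETCs had 10 or more Fos UMIs, against 17.6% and 28.6% of αβ T cells. Within αβ T cells, Hk2 also differed by Fos. In the isotype library it had 8 UMIs in 58 cells with no Fos UMI, or 35.7 CPM (95% Poisson interval 15.4 to 70.3), and 51 UMIs in 33 cells with 10 or more, or 330 CPM (246 to 434). In the Skint1 antibody library the levels were 53.3 CPM (26.6 to 95.3) and 291 CPM (229 to 363).

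Hilpda in αβ T cells stood at 8.92 CPM without Fos UMIs and 214 CPM with 10 or more under isotype, and at 38.7 and 185 CPM under Skint1 antibody. In αβ T cells without a Trdc UMI, Hk2 was still higher with 10 or more Fos UMIs, at 231 against 39.2 CPM and 147 against 36.0 CPM. Hilpda in these cells was at 84.1 against 9.80 CPM and at 85.3 against 41.9 CPM, where the intervals of the last pair overlapped (42.6 to 153 and 16.9 to 86.4). DETCs with no Fos UMI had 140 and 193 CPM of Hk2, above αβ T cells with no Fos UMI in both libraries with intervals that did not overlap (125 to 157 and 176 to 210 in DETCs). For Hilpda this did not hold in both libraries. DETCs with no Fos UMI had 36.2 and 36.5 CPM of Hilpda, beside 8.92 and 38.7 CPM in αβ T cells with none, so they were not higher under Skint1 antibody. The number of cells in these classes allows values only, and the part of Fos in the differences between classes was not tested.

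Of 61 further genes of glycolysis and the hypoxia response on a second list, 32 were tested between classes and 49 by Fos. By Fos, 16 rose and 2 fell, against 16.1% and 11.4% of all genes tested. Vegfa, the vascular growth factor, rose from 6.11 to 93.0 CPM and from 7.08 to 86.3 CPM (log2 fold change 3.95 ± 0.16, edgeR adjusted p = 2.07e-19). Adm, which encodes the vasodilator peptide adrenomedullin, had a log2 fold change of 3.26, the transcription factor Myc 2.53, the immediate early gene Ier3 2.33 and the glycogen-targeting phosphatase subunit Ppp1r3b 2.12.

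Against αβ T cells, 4 of the 32 further genes were higher in DETCs and 6 were lower, and these 31.2% lie near the 32.5% called among all genes tested. P4ha2, a second collagen prolyl hydroxylase, stood at 38.7 and 35.1 CPM in DETCs and at 3.94 and 1.29 CPM (3 and 1 UMIs) in αβ T cells. The log2 ratio in the isotype library was 3.29 with a counting interval of 1.74 to 5.58. Bhlhe40, a hypoxia-induced repressor of transcription, was lower in DETCs (log2 fold change -2.38), as were the Notch effector Rbpj (-1.44) and the aspartate aminotransferase Got1 (-1.25), while Vegfa was higher (2.20).

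Against the ILC class, 11 of the 32 further genes were higher in DETCs and 5 lower, against 18.3% and 16.1% of all genes tested. P4ha2 had no UMI among 598307 of the ILC class in the Skint1 antibody library, which allows a level of up to 5.01 CPM, and 2 UMIs in the isotype library. Vhl, the adaptor that brings hydroxylated HIF to its ubiquitin ligase, and the aldolase Aldoc rested on 1 to 3 UMIs in each ILC library. In the isotype library the log2 ratio of DETCs to the ILC class was 3.22 for Vhl, with a counting interval of 0.73 to 8.53, and 1.97 for Aldoc, with an interval of 0.11 to 5.02. Bhlhe40 was lower (log2 fold change -2.06), and Bpgm, which diverts a glycolytic intermediate, was higher (2.04).

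Whether blocking Skint1 moved these genes cannot be tested, since each treatment had 1 library, and any other difference between the libraries cannot be told apart from the treatment. Ratios of CPM are given with exact binomial 95% intervals for counting error, and a gene is counted past the fold at a 1.5-fold ratio if it had at least 50 UMIs in both libraries together and at least 10 CPM. In DETCs, 25 of the 32 members met this minimum, and 0 of them were past 1.5-fold in either direction, where 0.331% of all genes with the minimum were (0.0398% higher and 0.292% lower under Skint1 antibody). Their log2 ratios of Skint1 antibody over isotype ran from -0.15 to 0.42 with a median of -0.03, the same median as over all genes.

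Ddit4 had the widest ratio in DETCs, with 15.3 CPM under isotype and 20.5 CPM under Skint1 antibody (log2 ratio 0.42, interval 0.18 to 0.67). The ratio lay between 0.23 and 0.48 under all alternatives. Bnip3 followed at 28.2 and 32.4 CPM (0.20, interval 0.02 to 0.39). For Hk2 the depth gave a narrow counting interval, at 0.08 with an interval of 0.03 to 0.12, and for Aldoa at 0.08 with an interval of 0.03 to 0.14. Over the alternatives the ratio ran from 0.05 to 0.46 for Hk2 and from 0.05 to 0.19 for Aldoa. In DETCs with no Fos UMI, Hk2 stood at 140 CPM under isotype and 193 CPM under Skint1 antibody. A group of 6 members had intervals wholly below 0, all with small ratios, and these were Hif1a (-0.15), Pgk1 (-0.14), Tpi1 (-0.09), Ldha (-0.08), Gpi1 (-0.07) and Gapdh (-0.05). Hilpda stood at -0.03 with an interval of -0.09 to 0.03. The 7 members under the minimum were Slc2a3, Pfkfb3, Pfkfb4, Slc16a3, Pdk1, Ankrd37 and Mxi1. Of these Pfkfb3, at 9.96 and 7.54 CPM, had an interval without 0 (log2 ratio -0.40, -0.75 to -0.06). Of the 61 further pathway genes 34 met the minimum, and 0 were past the fold. Only among DETCs with no Fos UMI was a member past the fold, P4ha1 at 0.64 on the log2 scale, with 15.5 CPM under isotype and 24.2 CPM under Skint1 antibody. In these fewer cells 410 of all genes were past the fold, against 25 in all DETCs.

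**Figure D5:**
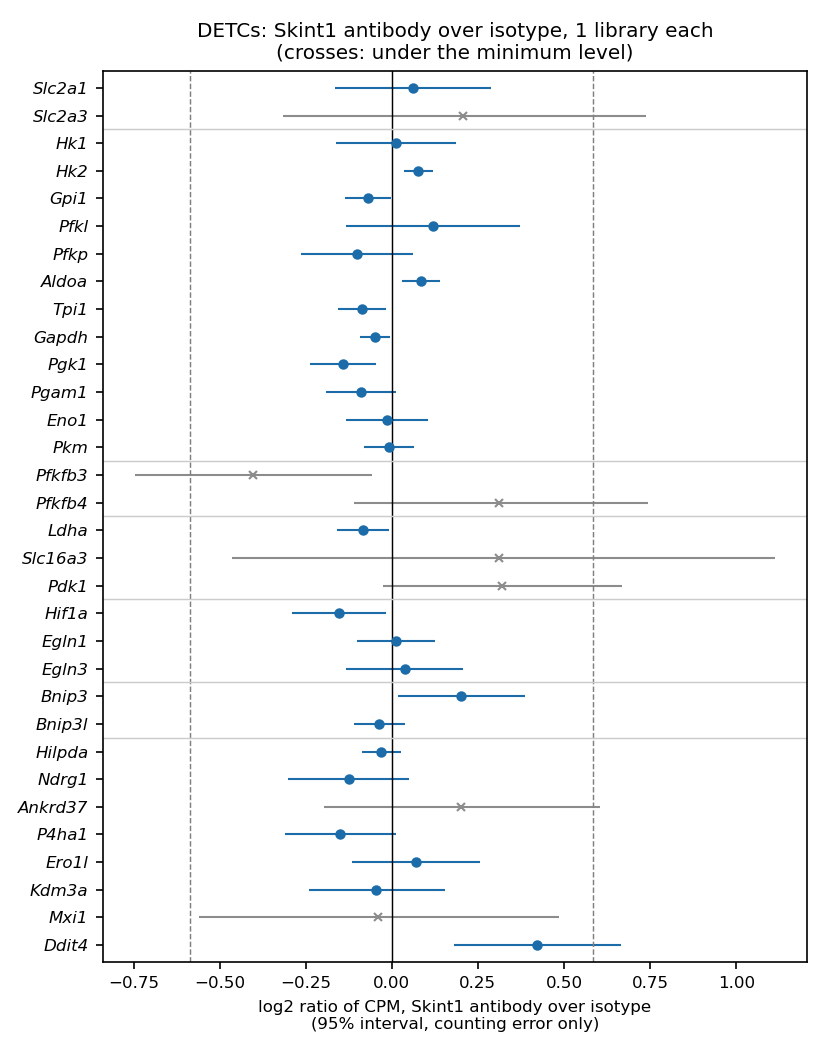
Log2 ratio of CPM in DETCs of the Skint1 antibody over the isotype library for each gene, with 95% intervals for counting error only, crosses for genes under the minimum level and dashed lines at 1.5-fold. All 25 ratios above the minimum lie inside the dashed lines, with Ddit4 at 0.42 the farthest from 0.

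In αβ T cells, 1 of 20 members with the minimum was past 1.5-fold, where 8.97% of all genes were (3.34% higher and 5.63% lower). It was Ddit4, at 65.7 CPM under isotype (50 UMIs) and 25.8 CPM under Skint1 antibody (20 UMIs), a log2 ratio of -1.35 with an interval of -2.18 to -0.58. In the isotype library 10 cells held 54.0% of its UMIs, and 1 cell held 11 of the 50. Without cycling cells Ddit4 fell under the minimum, and 0 members were past the fold. The ratio of Ddit4 in DETCs, 0.42, had the other sign, and the difference was not tested. In the ILC class, 3 of 14 members were past the fold, all lower under Skint1 antibody, where 14.9% of all genes were past it in either direction (6.6% higher and 8.3% lower). They were Eno1 (196 and 107 CPM, log2 ratio -0.87), Tpi1 (137 and 85.2 CPM, -0.69) and Bnip3l (184 and 117 CPM, -0.65). In the narrower ILC set the ratios were -0.74, -0.73 and -0.59, and without the upper limit on genes per cell they were -0.51, -0.09 and -0.11.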

How the data were processed

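The authors sequenced 10x Genomics 3' libraries and deposited UMI counts per gene and barcode, made with Cell Ranger 3.0.2 on GRCm38/mm10, for 6794880 barcodes in each library. The counts were not normalized. Totals were 27272211 UMIs (isotype) and 32450957 UMIs (Skint1 antibody). Here, counts were summed per class and library and tested in R 4.3.3 with edgeR 4.0.16 (quasi-likelihood test, trimmed-mean scaling, filterByExpr, library as a covariate, Benjamini-Hochberg adjusted p under 0.05). DESeq2 1.42.0 was an alternative. Python 3.11.15 with scipy 1.17.1 gave the intervals. The study's test over cells was not repeated, since cells are not replicates. No doublet caller was run.

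Other alternatives changed the limits on mitochondrial UMIs, genes and Fos UMIs, the class rules, the scaling, the filter, the depth and the libraries used. Those on Trdc UMIs in αβ T cells, on keratin and Il7r UMIs in the ILC class and on cycling cells in comparisons with or within those classes were chosen after seeing the data. Alternatives that leave out a library carry no test. No call can be lost in them, yet they count in the totals of alternatives given. The genes and lists were chosen with earlier results of these data known. All members called, and others at high level, are named, with up to 5 further pathway genes per comparison. On simulated data, 83.5% (αβ T cells), 74% (ILC class) and 62.5% (Fos) of 200 genes changed 2-fold were recovered, over 7322, 7322 and 10922 genes. Of the calls made there, 2.91%, 5.13% and 6.72% were false. The simulated spread was a coefficient of variation of 0.15 for every gene, not taken from these data, and genes with few expected UMIs were not among those changed. These rates hold for that setting only.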

Additional observations from a re-analysis of the deposited data

Results flagged for a closer look

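DETCs with over 2500 genes were left out of the main comparisons and entered only the alternative without the upper gene limit. They were 312 cells in the isotype and 287 in the Skint1 antibody library, with a median of 9347 and 8890 UMIs. Mxi1, the Myc antagonist, stood at 9.04 CPM (28 UMIs) in these cells of the isotype library and at 8.93 CPM (25 UMIs) in those of the Skint1 antibody library, above the 3.96 and 3.85 CPM of the DETCs analysed. It was picked out because the signal lies in cells outside the main comparisons. The cycling gene Mki67 stood at 326 and 304 CPM in the large cells against 15.4 and 11.8 CPM, and its part in the Mxi1 level was not tested.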

How the results depend on the processing

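No paired analysis was possible because each treatment had 1 library and the labels give no replicate numbers. This holds for the treatments, whereas classes and Fos groups were compared within library, with library as a covariate. Leaving out a library moved the members' median log2 fold change to between -0.46 and -0.38 against αβ T cells, -0.34 and -0.25 against the ILC class and 0.23 and 0.26 by Fos. Against αβ T cells, DESeq2 called 2 members and 674 genes higher, and a mitochondrial limit of 5% gave 2 members and 594 genes higher, 517 genes lower and a members' median of -0.65. Against the ILC class, DESeq2 called 886 genes higher. The 5% limit gave 2 members higher and 4 lower, 405 genes higher and 419 lower, and a median of -0.66. No upper gene limit gave 2655 genes higher and 3607 lower, and turned Ndrg1 to -1.06 and P4ha1 to 0.44, both called, from 0.04 and -0.15, which were not.

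By Fos, DESeq2 called 7 members higher and 0 lower (1036 and 181 genes), library totals 7 and 5 (1139 and 3397 genes, members' median 0.0198), and the 5% limit 7 and 0 (1067 and 476 genes). Higher calls were 58.6% of all calls in the main comparison, 25.1% with library totals, 85.1% with DESeq2 and 69.2% with the 5% limit. Thinning to 2000 UMIs left 766 genes lower, and Aldoa turned to -0.0321 with library totals. Requiring Trdv4 gave 14 members higher and 2 lower, beside 1730 and 1216 of all 10751 genes tested.

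Between treatments in DETCs, 25 genes were past 1.5-fold, and 99 with the 5% limit, 42 with no upper gene limit, 51 after thinning, 410 in DETCs with 0 Fos UMIs (1 member), 54 in those with 10 or more and 2576 with no filter. In αβ T cells 1 of 20 members was past the fold, beside 336 of 3745 genes. There were 2 of 20 relative to the median gene (330 of 3745 genes), 2 of 20 with cells weighted equally (402 of 3745), 2 of 21 with cells of both classes kept (350 of 3927), 2 of 18 without Trdc UMIs (293 of 2907), 4 of 21 with no upper gene limit (485 of 4485), 0 of 18 without cycling cells (312 of 3052) and 6 of 31 with no filter (3613 of 10815). The 5% limit left 207 of 1768 genes. In the ILC class 3 of 14 members were past it (359 of 2409 genes), 5 of 14 with cells weighted equally (409 of 2409), 0 of 4 with the 5% limit (150 of 462), 2 of 26 with no upper gene limit (681 of 6698) and 10 of 32 with no filter (4255 of 9901). The causes were not tested. With 1 library per treatment, no treatment difference has a replicate check, and the αβ T and ILC classes are too small for close bounds on low genes.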

Other observations

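The large DETCs left out by the limit on genes also differed in other members. Hk2 stood at 334 and 349 CPM in them in the isotype and Skint1 antibody library, against 527 and 556 CPM in the DETCs analysed. Hilpda stood at 173 and 180 CPM, against 304 and 298 CPM. Gapdh was on the other side, at 744 and 766 CPM against 528 and 511 CPM. Fos was at 2315 and 2472 CPM in the large cells, against 3766 and 3699 CPM. These are values of cells chosen by their number of genes, with no test.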
